A study of Canis lupus familiaris with 33 samples.

Results

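The genes KEAP1, GCLC, GCLM, SLC7A11, TXNRD1, SRXN1, GPX2, NQO1, ME1 and SULT1A1 are described here in bladder tissue of dogs. They were taken by gene symbol from the TMM-normalized table, in which each of the 10 symbols has 1 row, out of 25096 genes in all. The tumors (n = 29) were high grade canine invasive urothelial carcinomas (iUC) that arose naturally in dogs not yet treated, 1 tumor per dog, most of them taken by cystoscopic biopsy. The normal samples (n = 4) were bladder mucosa dissected from dogs euthanized for diseases outside the bladder. RNA of all 33 samples was sequenced in a single batch. The dogs with tumors were of any age, sex and breed, which the sources used here do not give for the dogs of the normal samples. The tumors are numbered 1 to 29 and the normals 1 to 4 in the order of deposition, which carries no meaning.

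NRF2 (gene NFE2L2) is a transcription factor that switches on defences against oxidants and electrophiles. KEAP1, an adaptor of the CUL3 ubiquitin ligase, holds NRF2 down by sending it to the proteasome, and oxidants that modify KEAP1 let NRF2 accumulate. Its targets make glutathione, keep thioredoxin and peroxiredoxins reduced, reduce quinones and supply NADPH. Urothelium is exposed to reactive compounds in urine, and mutations of this pathway occur in several human carcinomas. NFE2L2 itself was not analysed here, so the regulator is represented by KEAP1 and the other regulators listed further on.

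A value is a log2 level minus the median of that gene over the 33 samples, so 0 is the middle sample, 1 is a level 2 times as high, and values compare samples within a gene and not genes with each other. None of the 10 genes was at a shared lowest value in any sample, so all of them passed the filter on low values. A gene was called higher or lower in tumors at a change of at least 2-fold and an adjusted p of at most 0.05 by limma, fitted over all 24471 genes tested.

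Of the 10 genes, 6 were called higher in tumors (KEAP1, GCLC, TXNRD1, SRXN1, NQO1 and SULT1A1) and 0 were called lower by limma, also 0 at an unadjusted p of at most 0.05 by limma or by the exact test given below. Over all genes tested, 10.7% were called higher and 45.8% lower. Many of the genes called lower had their median at the shared lowest value, and over the 18418 genes whose median lies above that value 14.2% were called higher and 30.4% lower. NQO1 had the largest difference of the 10, at 4.44-fold, and GPX2 was the 1 gene with a lower mean in tumors than in normals. The count depended on the normalization, since 3 genes (TXNRD1, SRXN1 and NQO1) passed both thresholds in the DESeq-normalized table. Over all genes tested, 2615 of 24471 were called higher and 11206 lower in the TMM-normalized table. The DESeq-normalized table had 1377 of 24517 called higher and 12045 lower. KEAP1, GCLC and SULT1A1 there kept an adjusted p of at most 0.05 but fell just under 2-fold. That table lies lower in tumors as a whole, with a median log2 change of -0.30 over the 18418 genes against -0.01 in the TMM-normalized table, and the sign of the change was the same in both tables for each of the 10 genes.

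**Figure D1:**
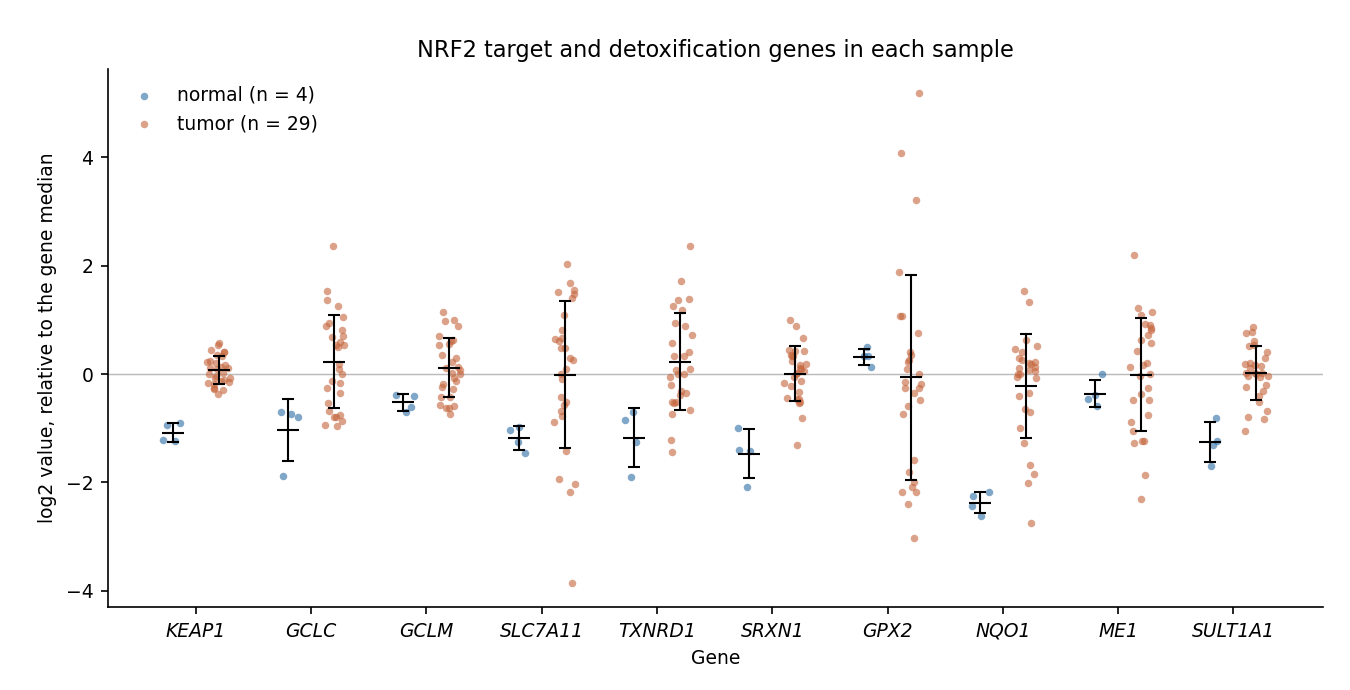
Log2 value of each gene (y axis, relative to the median of the gene over 33 samples) in each normal (blue, n = 4) and each tumor (orange, n = 29), with mean and SD as black bars. KEAP1 is the gene whose tumors, between -0.37 and 0.58, all lie above the normals, while GPX2 spans -3.03 to 5.18 in tumors around normals at 0.13 to 0.50.

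KEAP1, the inhibitor of NRF2, had log2 values of -1.22, -0.94, -0.91 and -1.23 in normals 1 to 4, and a lowest, median and highest tumor value of -0.37, 0.09 and 0.58. Every tumor lay above every normal, a separation that 7.63% of all genes tested showed in this direction. The mean log2 value rose from -1.08 ± 0.18 (SD, n = 4) to 0.08 ± 0.26 (SD, n = 29), a log2 change of 1.15 (SE 0.15, adjusted p = 3.02e-08, limma). In the DESeq-normalized table the log2 change of KEAP1 was 0.86 (SE 0.15, adjusted p = 6.39e-06), under 2-fold. KEAP1 also varied little among tumors, and 8.38% of the genes tested had a smaller SD over tumors.

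GCLC is the catalytic and GCLM the regulatory subunit of glutamate cysteine ligase, the enzyme that sets the rate of glutathione synthesis. GCLC had log2 values of -0.79, -0.70, -0.73 and -1.88 in the normals and -0.95, 0.19 and 2.36 in the lowest, median and highest tumor. Of the tumors, 23 lay above every normal and 6 within the normal range, which normal 4 stretched downward. The log2 change of GCLC was 1.26 (SE 0.44, adjusted p = 0.0107, limma), 2.39-fold. Without normal 4 it was 0.97 with an adjusted p of 0.0818, so that the call on GCLC rested on that sample. In the DESeq-normalized table it was 0.96 (SE 0.43, adjusted p = 0.0467).

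GCLM had log2 values of -0.61, -0.38, -0.40 and -0.70 in the normals and -0.74, 0.08 and 1.15 in the lowest, median and highest tumor. The 22 tumors above every normal, with 6 inside the normal range and 1 below it, gave GCLM about the same overlap as its partner subunit. Its log2 change was smaller, at 0.63 (SE 0.28, adjusted p = 0.0405, limma), and did not reach 2-fold. It was 0.34 (adjusted p = 0.28) in the DESeq-normalized table.

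SLC7A11 is the cystine carrying subunit of the cystine/glutamate exchanger, which brings in the cysteine for glutathione. Its log2 values were -1.03, -1.25, -0.97 and -1.45 in the normals and -3.85, 0.26 and 2.03 in the lowest, median and highest tumor. The tumors fell on both sides of the narrow normal range, with 24 above every normal, 4 below every normal (tumors 17, 18, 22 and 23) and 1 inside. The difference in means of SLC7A11 was 2.25-fold, about that of KEAP1, yet the spread of 1.36 (SD, n = 29) over tumors left it short of the test (log2 change 1.17, SE 0.67, adjusted p = 0.116). Over tumors, 90% of the genes tested had a smaller SD than SLC7A11.

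TXNRD1, cytosolic thioredoxin reductase, returns oxidized thioredoxin to its working form with NADPH. Its log2 values were -1.26, -0.84, -0.69 and -1.90 in the normals and -1.43, 0.08 and 2.36 in the lowest, median and highest tumor. All tumors but 3 lay above every normal, and those 3 were within the normal range. The log2 change of TXNRD1 was 1.40 (SE 0.45, adjusted p = 0.00626, limma), and 1.10 (SE 0.44, adjusted p = 0.0278) in the DESeq-normalized table. Normal 4 was again the lowest normal, and without it the log2 change was 1.16 (adjusted p = 0.0469). Normal 4 was also the lowest normal for KEAP1, GCLM, SLC7A11, SRXN1 and SULT1A1, but not for GPX2, NQO1 and ME1. Without normal 4 the log2 change was 1.10 for KEAP1, 1.28 for SRXN1 and 1.13 for SULT1A1, all still called.

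SRXN1, sulfiredoxin, repairs peroxiredoxins whose active cysteine has been oxidized too far. SRXN1 had log2 values of -1.41, -0.99, -1.40 and -2.08 in the normals and -1.30, 0.06 and 1.00 in the lowest, median and highest tumor. The groups met only through tumor 22, and the other 28 tumors were above every normal. SRXN1 rose by 2.80-fold (log2 change 1.49, SE 0.27, adjusted p = 8.92e-06, limma), with a log2 change of 1.19 (adjusted p = 0.000163) in the DESeq-normalized table.

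GPX2 encodes the glutathione peroxidase known from the epithelium of the gut. Its log2 values were close together in the normals, at 0.34, 0.50, 0.13 and 0.33, and were -3.03, -0.19 and 5.18 in the lowest, median and highest tumor. Tumors lay on both sides of the normals, with 18 below, 7 above and 4 between them. GPX2 reached 5.18 in tumor 11, 4.09 in tumor 9 and 3.22 in tumor 8, and the next tumor was at 1.88. The means did not differ by the test (log2 change -0.38, SE 0.93, adjusted p = 0.722, limma). The SD over tumors, 1.89 (n = 29), was 12.43 times that over the normals and larger than that of 97.4% of the genes tested, so that GPX2 differed among tumors far more than between the groups.

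NQO1 reduces quinones by a pair of electrons at once and is the textbook indicator of NRF2 activity. NQO1 had log2 values of -2.17, -2.25, -2.62 and -2.43 in the normals and -2.74, 0.05 and 1.53 in the lowest, median and highest tumor. Of the tumors, 28 were above every normal and tumor 9 was below every normal. NQO1 rose by 4.44-fold (log2 change 2.15, SE 0.48, adjusted p = 0.000185, limma), and 98.6% of the genes tested had a smaller log2 change. In the DESeq-normalized table the log2 change of NQO1 was 1.85 (SE 0.48, adjusted p = 0.000949).

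ME1, the cytosolic malic enzyme, makes NADPH for reduction reactions and lipid synthesis. Its log2 values were -0.59, -0.38, 0.00 and -0.46 in the normals and -2.30, 0.13 and 2.20 in the lowest, median and highest tumor. Tumors were on both sides, 16 above every normal, 8 below and 5 between. The means of ME1 did not differ by the test (log2 change 0.35, SE 0.51, adjusted p = 0.546, limma).

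SULT1A1, a cytosolic sulfotransferase, adds sulfate to phenols and also activates some aromatic amines that are bladder carcinogens in humans. It is not a usual NRF2 target and stands here for detoxification. SULT1A1 had log2 values of -1.24, -1.30, -0.81 and -1.70 in the normals and -1.05, 0.02 and 0.87 in the lowest, median and highest tumor. All tumors but 2 lay above every normal, and those 2 were within the normal range. SULT1A1 rose by 2.43-fold (log2 change 1.28, SE 0.26, adjusted p = 5.14e-05, limma), and its log2 change in the DESeq-normalized table was 0.98 (adjusted p = 0.00111), just under 2-fold.

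**Figure D2:**
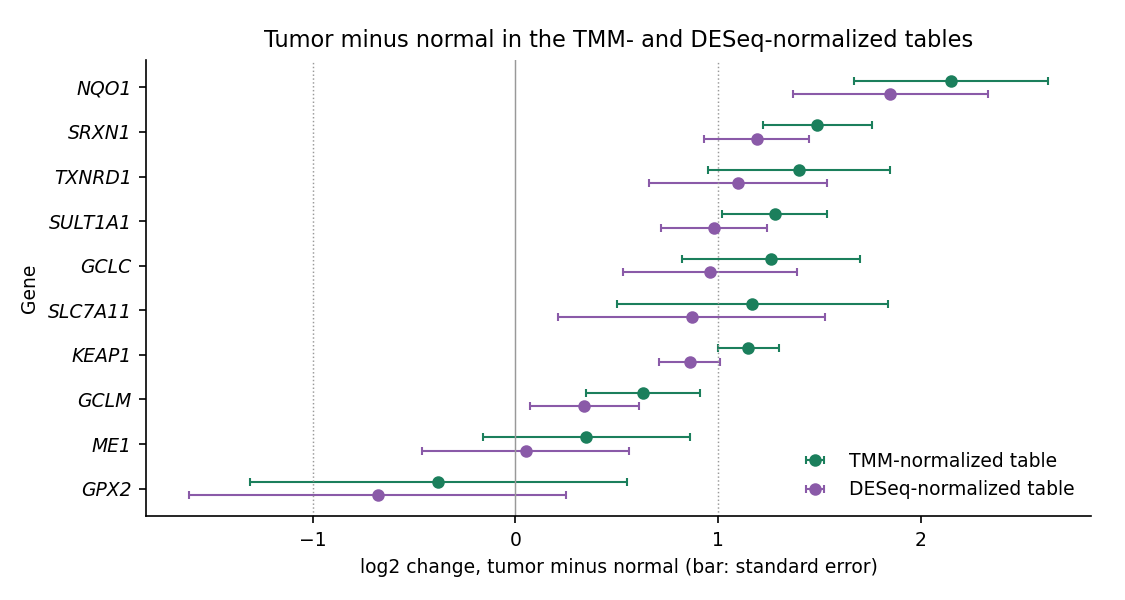
Log2 change, tumor minus normal, of each gene (x axis, bar: standard error) in the TMM-normalized table (green) and the DESeq-normalized table (purple), with dotted lines at 2-fold. Each gene lies further left in the DESeq-normalized table, and KEAP1, GCLC, SLC7A11 and SULT1A1 lie past 2-fold in the TMM-normalized table alone.

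An exact permutation test of the difference in means over all 40920 ways to choose 4 of the 33 samples, two-sided and without adjustment, put the same genes on the same side of 0.05 as limma's adjusted p. KEAP1 had p = 2.44e-05, the smallest this test can give, and the other genes called had exact p between 4.89e-05 (SRXN1) and 0.00885 (GCLC). GCLM had an exact p of 0.0267, SLC7A11 0.0998, ME1 0.508 and GPX2 0.695.

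The tissues differed in more than these genes, and those differences moved with the group. In the normals, titled as normal mucosa, 7 of 7 smooth muscle markers were called higher than in tumors (none was at its lowest value in most tumors). The mean log2 value of that list was 5.06 to 7.13 in normals and -1.11 to 3.91 in tumors. The mean of 3 epithelial markers (KRT19, CDH1 and EPCAM, all called higher in tumors) was -2.47 to -1.29 in normals and -0.59 to 0.99 in tumors, so every tumor lay above every normal. Of 6 proliferation markers 5 were called higher in tumors, and of 7 fibroblast markers 5 were called lower, 1 (PDGFRA, log2 change 1.62, adjusted p = 0.00644) higher and 1 (PDGFRB, log2 change -1.14, adjusted p = 0.101) neither. Of 10 luminal urothelial markers 6 were called higher and 1 lower, of 8 leukocyte markers 2 higher and 0 lower. Both of the 2 nerve sheath markers were called lower, and 0 of 4 endothelial and 0 of 5 basal urothelial markers were called. The shares over all genes are those given above. In bulk tissue fewer cells of a type and less RNA per cell cannot be told apart, and the part of these markers in the changes of the 10 genes was not tested. The normals also had fewer genes at the lowest value (755 to 1019, against 3699 to 8175 in tumors), and tumors 14, 17 and 25, with 3699 to 4638, stood apart from the other tumors. Without these 3 tumors 6 of the 10 genes were again called higher.

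Relatives of the 10 genes, which work in the same reactions, were measured in the same samples and did not all move with them. They were picked by gene family from the gene lists described below, with their values known. GSS, glutathione synthetase, which completes glutathione after the step of GCLC and GCLM, had a log2 change of 0.51 (SE 0.19, adjusted p = 0.0188), under 2-fold. SLC3A2, the chain that carries SLC7A11 to the membrane, had a log2 change of 0.26 (SE 0.34, adjusted p = 0.488). TXNRD3, a thioredoxin reductase best known from the testis, had a log2 change of -0.88 (SE 0.20, adjusted p = 0.000216), with 27 tumors below every normal, where 26 tumors were above every normal for TXNRD1. Of 5 glutathione peroxidases, GPX1 (log2 change 1.37) and GPX7 (1.23) rose, GPX3 (-2.35) and GPX8 (-2.12) fell, and GPX2 was not called, a share lower that lies between the 30.4% and 45.8% given above for genes in general. Of the malic enzymes, mitochondrial ME3 fell (log2 change -2.22, SE 0.45, adjusted p = 5.33e-05), and mitochondrial ME2 had a log2 change of 0.82 (SE 0.32, adjusted p = 0.0213).

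The sulfotransferases went furthest apart. They were picked with their values known, and 45.8% of all genes tested were called lower (30.4% of those with a median above the lowest value). Of 8 tested, SULT1A1 was called higher and 6 were called lower, with log2 changes of -2.81 in SULT1E1, which inactivates estrogens, -2.90 in SULT1C2, -2.94 in SULT2B1, which sulfonates cholesterol, -3.44 in SULT6B1, -3.88 in SULT1B1 and -4.11 in SULT4A1. SULT1C4 had a log2 change of 0.84 (adjusted p = 0.0404) and was not called. SULT1C2 was above its lowest value in all 33 samples, and there every tumor lay below every normal. The share of all genes with a separation in this direction was not counted, so this one cannot be weighed. SULT4A1 and SULT1B1 were above their lowest value in 24 and 20 of the 33 samples, so that part of their fall ends at that value, in a direction in which genes near the lowest value moved in general.

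**Figure D3:**
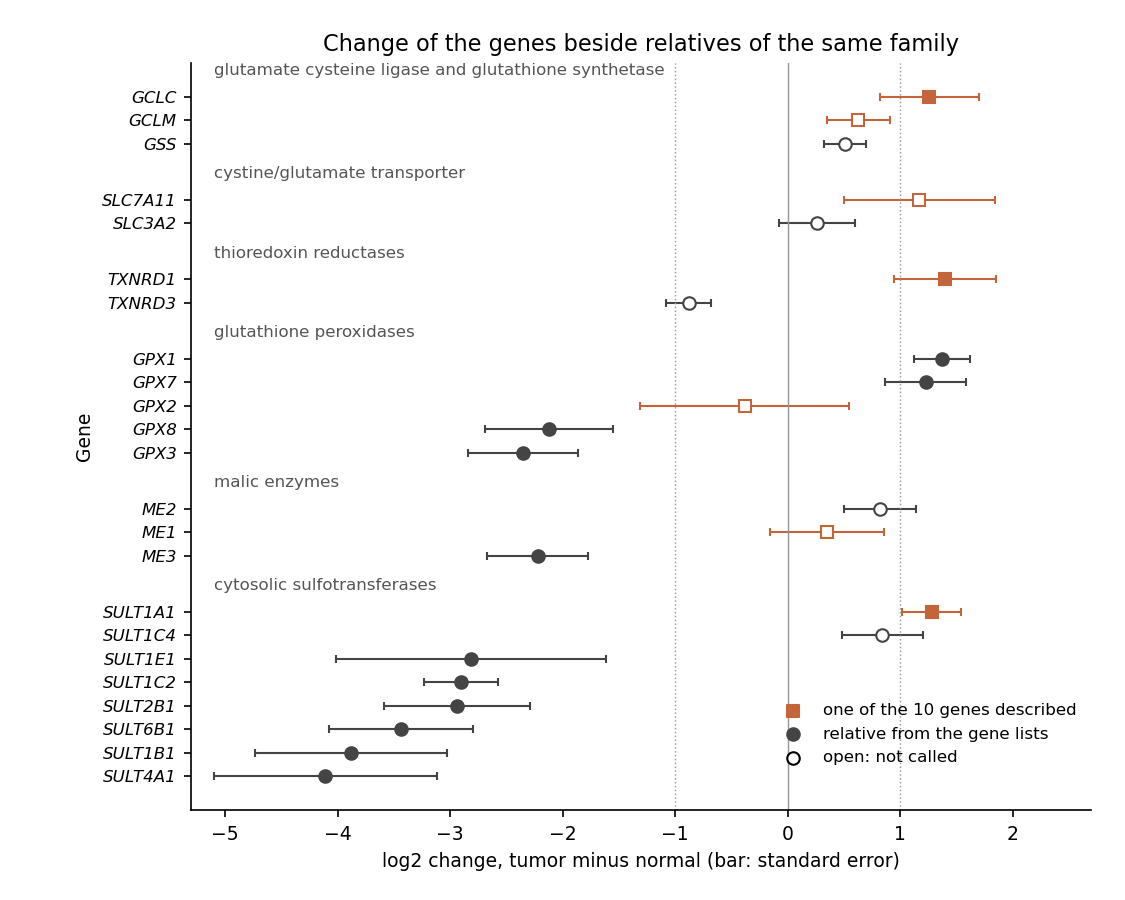
Log2 change, tumor minus normal (x axis, bar: standard error), of 7 of the 10 genes (orange squares) beside relatives of the same family (dark circles), filled where called and open where not, with dotted lines at 2-fold. SULT1A1 at 1.28 stands against 6 sulfotransferases between -4.11 and -2.81, and TXNRD1 at 1.40 against TXNRD3 at -0.88.

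Other genes of these pathways were counted from 9 lists of 161 genes, of which 102 were tested and 37 were called higher, 20 lower and 45 neither. Over the 18418 genes with a median above a shared lowest level, 14.2% were called higher and 30.4% lower. The median log2 change of the 102 genes was 0.58, where it was -0.01 over those 18418 genes and -0.84 over all genes tested. Of the listed genes, 25 were called higher and 22 lower in the DESeq-normalized table, where 1377 of all 24517 genes tested were called higher and 12045 lower. Of 7 regulators of the NRF2 pathway 5 were called higher and 0 lower, led by SQSTM1 (log2 change 1.77, SE 0.35, adjusted p = 3.33e-05), the autophagy receptor that binds KEAP1, and MAFG (log2 change 1.60, SE 0.25, adjusted p = 1.17e-06), a small MAF protein that pairs with NRF2 on DNA. CUL3, the ligase scaffold that KEAP1 serves, had a log2 change of 0.76 (SE 0.22, adjusted p = 0.0022), under 2-fold. Of 17 other NRF2 targets 7 were called higher and 1 lower. BLVRB, which reduces biliverdin (log2 change 2.58, SE 0.33), and GSR, glutathione reductase (log2 change 2.45, SE 0.48), rose most, and GSTM3, a glutathione transferase, fell (log2 change -2.20, SE 0.75, adjusted p = 0.00961). HMOX1, heme oxygenase, had a log2 change of 0.64 (SE 0.44, adjusted p = 0.193).

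For the counts that follow, the shares over all genes tested were 10.7% higher and 45.8% lower, and 14.2% and 30.4% over genes with a median above the lowest value. In the rest of glutathione metabolism 6 of 16 genes were called higher and 4 lower. OPLAH, which recycles oxoproline to glutamate, and GSTP1, the glutathione transferase of many epithelia, rose (log2 changes 1.83 and 1.52), and GGT7 and the secreted peroxidase GPX3 fell (log2 changes -2.58 and -2.35). In the thioredoxin, dismutase and catalase list 4 of 15 were called higher and 2 lower. There MSRA, a methionine sulfoxide reductase, and TXN2, mitochondrial thioredoxin, had log2 changes of 1.08 and 1.02 in the TMM-normalized table and of 0.78 and 0.73 in the DESeq-normalized table, where neither was called. SOD3, the extracellular superoxide dismutase, and SESN1, a sestrin, fell (log2 changes -2.83 and -1.75).

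Among the enzymes of phase I oxidation 4 of 14 were called higher and 5 lower, the latter a share between the 30.4% and 45.8% of genes called lower in general, and of phase II conjugation, apart from SULT1A1, 0 of 12 were called higher by limma and 7 lower. SULT1C4 and SLC35B2, the transporter of the sulfate donor, had adjusted p of 0.0404 and 0.00291 with log2 changes of 0.84 and 0.89, under 2-fold. ALDH1A1, a retinal dehydrogenase, rose by 2.34 and FMO5 by 1.71 on the log2 scale. FMO1, a flavin monooxygenase (log2 change -5.98, SE 0.47), and CYP1B1, a cytochrome P450 that oxidizes estrogens and polycyclic hydrocarbons (log2 change -5.60, SE 0.87), had the largest falls in the lists, and FMO1 was above its lowest value in 9 of the 33 samples. The 7 smooth muscle markers and 5 of the 7 fibroblast markers were called lower as well, and the part of those cells was not tested. AHR, the aryl hydrocarbon receptor that induces CYP1B1, had a log2 change of 1.31 (adjusted p = 0.0138), which was not called in the DESeq-normalized table (1.01, adjusted p = 0.0579).

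ATF4, a transcription factor of amino acid shortage that also acts on SLC7A11, is the head of a list in which 5 of 9 genes were called higher and 0 lower, beside the general 10.7% to 14.2% higher and 30.4% to 45.8% lower. TRIB3 and CEBPB rose most in it (log2 changes 2.20 and 1.94), and ATF4 itself had a log2 change of 0.58 (adjusted p = 0.0353). Around ME1, 5 of 9 genes of NADPH supply and lipid synthesis were called higher and 1, ME3, lower. ACLY, the citrate lyase that feeds fatty acid synthesis, rose by 2.20 and the folate enzyme MTHFD1 by 1.82 on the log2 scale.

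The 10 genes were next compared over the 29 tumors alone, so that the normal samples do not enter a relation. The content of other cell types in each biopsy was not adjusted for. Of the 45 pairs, 8 were correlated at an adjusted p of at most 0.05 (Pearson's r, two-sided permutation test, Benjamini-Hochberg over the 45 pairs), all of them positively, and all 8 had an r of at least 0.5. This is 17.8% of the pairs, where 1.70% of all pairs among 17994 genes reached an r of 0.5. Over the 45 pairs 37 had a positive and 8 a negative r, with a median of 0.226. The 8 pairs lay among GCLC, GCLM, SLC7A11, TXNRD1, SRXN1, NQO1 and ME1. KEAP1, GPX2 and SULT1A1 were in no called pair, with a highest r of 0.389, 0.35 and 0.222.

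**Figure D4:**
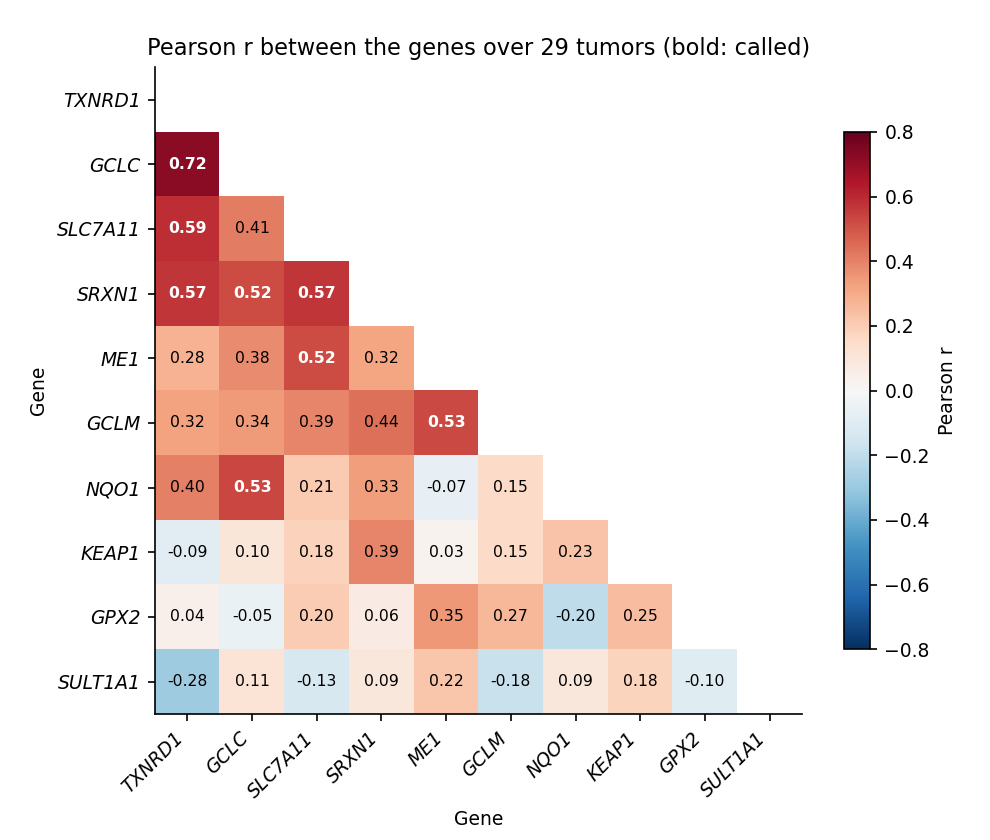
Pearson's r over the 29 tumors for each of the 45 pairs of genes, as colour and number, in bold where the adjusted permutation p is at most 0.05. The 8 called pairs lie in the upper left block, and the rows of KEAP1, GPX2 and SULT1A1 hold no called pair.

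GCLC and TXNRD1 were the closest pair, with r = 0.723 (permutation p = 2e-05, adjusted to 0.0009). By ranks Spearman's rho was 0.75 (permutation p = 1e-05, the smallest 100000 permutations give, adjusted p = 0.00045). With the 2 most extreme tumors for GCLC left out the r was 0.695, and with each tumor left out in turn it was 0.702 to 0.752. TXNRD1 was the gene most like GCLC over the tumors among 10962 named genes, and GCLC was the gene most like TXNRD1. Tumors 5, 8, 15, 24 and 29 were among the 7 highest for both, and tumors 7, 11, 14, 17 and 22 among the 7 lowest for both.

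TXNRD1 was also correlated with SLC7A11 (r = 0.588, adjusted p = 0.0164, rho = 0.58, rho adjusted p = 0.0174) and with SRXN1 (r = 0.569, adjusted p = 0.0164, rho = 0.585, rho adjusted p = 0.0174). Both stayed called whichever single tumor was left out. Without the 2 farthest tumors, TXNRD1 with SLC7A11 was not called (r = 0.518, adjusted p = 0.0751), and TXNRD1 with SRXN1 had r = 0.613. GCLC was correlated with NQO1 (r = 0.534, adjusted p = 0.0231, rho = 0.517, rho adjusted p = 0.0418) and with SRXN1 (r = 0.519, adjusted p = 0.0231, rho = 0.532, rho adjusted p = 0.0418). The remaining called pairs passed by r and not by rho, which were SLC7A11 and SRXN1 (r = 0.57, rho = 0.446, rho adjusted p = 0.082), GCLM and ME1 (r = 0.527, rho = 0.47, rho adjusted p = 0.078), and SLC7A11 and ME1 (r = 0.52, rho = 0.453, rho adjusted p = 0.0811). Of the 8 called pairs, 5 joined GCLC, SLC7A11, TXNRD1 and SRXN1 to each other. GCLM and GCLC, subunits of the same enzyme, had r = 0.342 (adjusted p = 0.194).

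**Figure D5:**
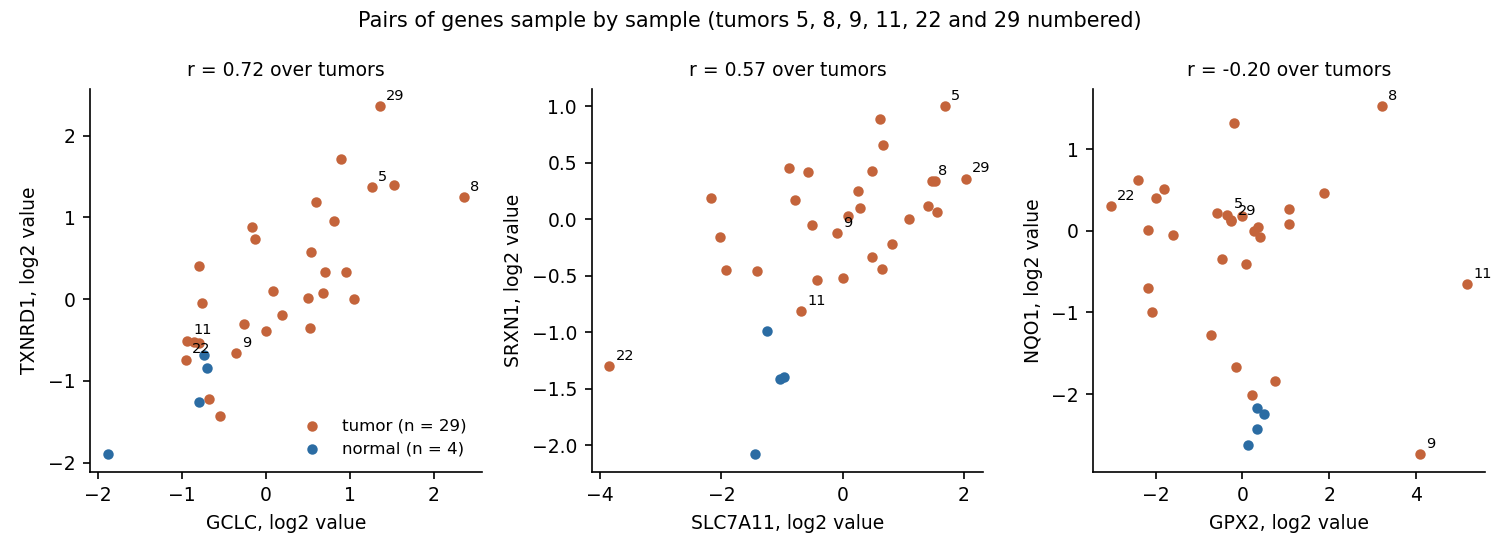
Log2 values of GCLC against TXNRD1, SLC7A11 against SRXN1, and GPX2 against NQO1 in the tumors (orange, n = 29) and normals (blue, n = 4), with 6 tumors numbered. TXNRD1 rises with GCLC across the tumors, tumor 22 lies alone at the lower left for SLC7A11 and SRXN1, and tumors 8 and 9, both high in GPX2, lie at opposite ends of NQO1.

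Single tumors weighed on several of these relations. Tumor 22 had the lowest value of GCLC, SLC7A11, SRXN1, GPX2 and ME1, was among the 7 lowest for 7 of the 10 genes, and was among the 7 highest for NQO1. Without tumor 22, 4 of the 45 pairs were called, and the r of SLC7A11 with SRXN1 was 0.408 and with ME1 0.379, that of GCLC with SRXN1 0.463 and that of GCLM with ME1 0.477. The pair of GCLC and SRXN1 was also not called without tumor 5 (r = 0.479) or without tumor 11 (r = 0.476), and that of GCLM and ME1 not without tumor 9 (r = 0.445). At the other end tumor 5 was among the 7 highest for 7 of the 10 genes (KEAP1, GCLC, GCLM, SLC7A11, TXNRD1, SRXN1 and ME1), and tumors 8 and 24 for 6 of them. The r of GCLC with NQO1 was 0.445 without tumor 8, which was highest for both, and the pair was then not called. When the 2 most extreme tumors for the first gene of each pair, by distance from its median, were left out, 2 pairs were called. These were GCLC with TXNRD1 (r = 0.695) and TXNRD1 with SRXN1 (r = 0.613). GCLC with SRXN1 then had r = 0.507, little changed, but was not called (adjusted p = 0.0751). Leaving out tumors 14, 17 and 25, which stand apart in the number of genes at the lowest value, left 8 pairs called, and regressing that number out left 7.

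GPX2 and NQO1, both counted as NRF2 targets, had r = -0.203 (permutation p = 0.287, adjusted p = 0.474) over the tumors, with r = 0.0121 without tumor 9 and r = -0.363 without tumor 8. Tumor 8 was high for both, with log2 values of 3.22 for GPX2 and 1.53 for NQO1. Tumor 9 had 4.09 for GPX2, the highest ME1 and GCLM, and the lowest NQO1 of all tumors (-2.74). Tumor 11, highest for GPX2, was among the 7 lowest for GCLC, GCLM, TXNRD1 and SRXN1.

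Each gene was also set beside 7 marker lists, scored as the mean z value over the tumors, which gave 70 relations. SULT1A1 rose with the score of 10 luminal urothelial markers (r = 0.588, permutation p = 0.00068, adjusted p = 0.0476 over the 70 relations, rho = 0.497, rho adjusted p = 0.151), and no other relation passed. This relation was not called by rho, in the DESeq-normalized table (r = 0.584, adjusted p = 0.0511), without the 2 farthest tumors (r = 0.463, adjusted p = 0.157) or without tumors 14, 17 and 25 (r = 0.595, adjusted p = 0.078). SULT1A1 had r = 0.526 with the 3 epithelial markers and r = -0.503 with the 7 smooth muscle markers (adjusted p = 0.0917 for both). NQO1 had r = -0.519 with 8 leukocyte markers (adjusted p = 0.0917) and r = 0.44 with 6 proliferation markers (adjusted p = 0.185). KEAP1 had r = -0.455 with the fibroblast markers (adjusted p = 0.16). TXNRD1 had r = 0.467 with the smooth muscle markers (adjusted p = 0.146), which was 0.00469 without the 2 farthest tumors.

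The genes whose values over the 29 tumors were most like each of the 10, by Pearson's r among 10962 named genes and given as a description, included the following. KEAP1 was most like LRRC75A (r = 0.76), PRKCD (0.683), a protein kinase C, and KAT2A (0.667), a histone acetyltransferase. After TXNRD1, GCLC was most like ARMC7 (0.666) and SLC25A24 (0.645), a mitochondrial carrier. GCLM was most like NAA35 (0.664), of a protein acetylating complex, SLC31A1 (0.614), the copper importer, and NPAT (0.586), and ME1 was most like the same NAA35 (0.729), ERCC6L2 (0.715) and KLHL18 (0.714).

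SLC7A11 was most like BLVRB (r = 0.694, rho = 0.767), which is one of the 31 other NRF2 targets listed, then FAM124B (0.688) and ZFAND5 (0.68). After GCLC, TXNRD1 was most like E2F6 (0.693) and ROCK2 (0.686), which were 0.504 and 0.469 without the 2 farthest tumors. SRXN1 was most like TMEM229B (0.643) and MDGA1 (0.63), which were 0.434 and 0.563 without the 2 farthest tumors. GPX2 was most like DDI2 (0.815), RSC1A1 (0.794) and SOX15 (0.755), a transcription factor.

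NQO1 was most like CHST4 (r = 0.702), a sulfotransferase of glycans that lies within 20 genes of NQO1 on the same chromosome, and RAB17 (0.682), a small GTPase of epithelial membrane traffic. The r with CHST4 was 0.42 and that with RAB17 0.505 without the 2 farthest tumors. SULT1A1 was most like NSUN4 (0.811), a methyltransferase of mitochondrial RNA, GLYR1 (0.731) and FOXA1 (0.716), a transcription factor of luminal urothelium that is 1 of the 10 luminal markers above.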

How the data were processed

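RNA of 29 canine iUC tumors and 4 normal bladder mucosa samples was sequenced in 1 batch. The authors aligned paired-end reads to CanFam 3.1 with COBWeb, quantified annotated genes in Strand NGS and normalized them by TMM and, separately, by DESeq. The deposited tables hold log2 values from which the gene's median over all 33 samples has been subtracted, as read from the values. In 10458 genes several samples share the lowest value. The values are not counts, the read total of each sample is not known, and precision is limited by the number of samples. The last, incomplete line of each copy used here was dropped.

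Genes above their shared lowest value in at least 4 samples were tested by limma (version 3.58.1, R 4.3.3), with lmFit and with eBayes run with its trend option, and p-values were adjusted over 24471 genes (Benjamini-Hochberg). Correlations over tumors used 100000 permutations, in Python 3.11.15 with numpy 2.4.6, pandas 2.3.3, scipy 1.17.1 and matplotlib 3.10.9. Both steps were tested on simulated data. Each tumor came from a different dog, and the sources used here do not say whether each normal did, so the spread between normals may be partly technical.

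The members, gene lists and tests were chosen with earlier results of these data known. The genes named are the 10 members, up to 2 with the largest rise and 2 with the largest fall among those called in each list, the 3 most like each member (some are not reported here), at most 3 markers of a list, and genes singled out after their values were seen (relatives of the members, SLC35B2, CUL3, HMOX1 and ATF4). Of 161 listed genes 102 were used, 8 of them named by Entrez number through a RefSeq gene table (UU_Cfam_GSD_1.0), which served for names and neighbours only, so no coordinates or sequences are given. FTL, FTH1 and MDH2, with 2 rows each, were left out, and NFE2L2 was not analysed here, so that 10 relations planned with it were not run. Alternatives were the DESeq-normalized table of the authors, limma with no trend, limma weighting each group, no filter or a filter at 17 samples, no fold-change threshold, samples centred on genes with a median above the lowest value, each normal left out, exact permutation, Spearman's rho, the genes at the lowest value regressed out, and the 2 farthest tumors left out. Leaving out tumors 14, 17 and 25, or each tumor in turn, was added after the data were seen.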

Additional observations from a re-analysis of the deposited data

Results flagged for a closer look

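Among the 10 genes and the 25 other genes named from the lists, 35 in all, the 4 normals were examined for a sample far from the rest, which chance alone gives in about 1 of 20 groups. GCLC in normal 4 had a log2 value of -1.88, where the other normals lay between -0.79 and -0.70, a gap of 0.924 of the range of the normals. SULT4A1 in normal 3 had a log2 value of 3.96, where the others lay between 3.41 and 3.49, a gap of 0.855 of the range.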

How the results depend on the processing

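Of 130 values of the log2 change of the 10 genes under alternatives, 125 kept their direction and whether the gene was called, 0 changed sign, and 5 changed the call. KEAP1 (0.86), GCLC (0.96) and SULT1A1 (0.98) fell under 2-fold in the DESeq-normalized table, GCLC was not called without normal 4 (0.97), and GCLM was called with no fold-change threshold (0.63). GCLM, under 2-fold throughout, had an adjusted p of 0.28 in the DESeq-normalized table, 0.0602 with a weight per group and 0.0582 to 0.112 when a normal was left out. Of 299 values for the other list genes named, 292 kept their call, 7 lost it (AHR, MSRA and TXN2) and 0 changed sign. Alternatives that change only the test, the group weights, the filter or the threshold leave the log2 change itself as it was. The sign was fixed in advance in those, for the 10 genes and the list genes alike. The 6 genes called higher became 3 in the DESeq-normalized table, 7 with no fold-change threshold and 5 to 6 without normal replicate 1, 2, 3 or 4, and 0 were called lower under every alternative. The 37 list genes called higher became 25 in the DESeq-normalized table and 52 with no fold-change threshold. They became 33 to 38 when a normal was left out. The 20 called lower became 22, 21 and 17 to 18 in the same order. With DESeq normalization, calls of higher over all genes also fell, from 2615 of 24471 to 1377 of 24517. Calls of lower over all genes rose from 11206 to 12045.

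The 8 called pairs became 5 by Spearman's rho and 2 without the 2 farthest tumors. Leaving out each tumor in turn gave 4 to 9 called pairs, with 4 without tumor 22. The 1 called relation with a marker list became 0 in the DESeq-normalized table, by rho, with the genes at the lowest value regressed out, without the 2 farthest tumors and without tumors 14, 17 and 25. The cause of these changes was not tested. No paired analysis was possible, because the normals came from dogs euthanized for diseases outside the bladder and not from the dogs with tumors. The number of reads of each sample is not known, and the 4 normals limit the precision of every change.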
